A study of Mus musculus with 16 samples.

Results

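The phagocyte NADPH oxidase was examined here through 6 genes in sorted neutrophils: its membrane subunits Cybb and Cyba, its cytosolic subunits Ncf1 and Ncf4, its GTPase Rac2 and the proton channel Hvcn1. They were taken by name, and all 6 were found among the 49315 genes listed in the count files. The study sequenced RNA of Ly6G+/CD11b+/CD45.2+ cells from blood and lung of WT mice and of mice lacking CD11d, the integrin chain αD encoded by Itgad (αD KO). Male mice of 8 to 12 weeks were taken untreated (0h) or 12 hours after cecal ligation and puncture (CLP), a model of polymicrobial abdominal sepsis. Genotype, tissue and time gave 8 groups: WT blood, WT lung, αD KO blood and αD KO lung, each at 0h and at 12h. Each group held 2 samples and 3 count files, named here libraries 1a and 1b (both filed under sample 1) and library 2. The study calls its RNA-seq samples triplicates, but neither the labels nor the methods said whether 1a and 1b came from separate mice or how many mice were pooled, so the p-values measured only the spread between these libraries, which may be technical. The αD KO mice came from the Jackson Laboratory, the labels name no strain, and the methods name no promoter or Cre that would limit the loss to neutrophils.

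The oxidase moves electrons from NADPH across the phagosome or plasma membrane to oxygen, which makes superoxide, the first product of the respiratory burst. In resting neutrophils the membrane subunits and the cytosolic subunits are kept apart, and on stimulation the cytosolic complex and GTP-bound Rac2 join the membrane subunits. Hvcn1 carries protons in the same direction as the electrons, so that charge does not build up. Loss of Cybb, Cyba, Ncf1 or Ncf4 is a known cause of chronic granulomatous disease, in which neutrophils kill bacteria and fungi poorly.

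Upstream sequences were compared because Cybb and Ncf1 both passed the test in WT blood, as described below, while Cyba did not. A difference between these genes was not tested. Cyba was also higher at 12h in libraries 1a, 1b and 2 there, with log2 ratios of 1.05, 1.49 and 1.25. Ncf4, which passed as well, had no matched start region. RefSeq start regions on GRCm38.p6 were matched for 3 of the 6 genes, Cybb, Cyba and Ncf1. The 250 bases before each start are printed 5′ to 3′ on the gene's own strand, and capitals mark GAAA, any 2 bases and GAAA on either strand, the letters of an interferon regulatory factor (IRF) type element. All 3 genes lie on the minus strand. The windows are chrX:9469325-9469574 for Cybb, chr8:122432941-122433190 for Cyba and chr5:134229626-134229875 for Ncf1. The Cybb window lies inside the span counted for that gene (X:9435252-9487771), so its RefSeq start is not the 5′ end of that span. Those of Cyba and Ncf1 lie just before the 5′ ends of their counted spans.
Cybb: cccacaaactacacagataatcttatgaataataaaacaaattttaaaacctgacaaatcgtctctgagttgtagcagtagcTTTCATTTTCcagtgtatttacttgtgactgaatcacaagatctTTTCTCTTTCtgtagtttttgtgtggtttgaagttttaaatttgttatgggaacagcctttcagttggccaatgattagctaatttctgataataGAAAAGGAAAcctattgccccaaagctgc
Ncf1: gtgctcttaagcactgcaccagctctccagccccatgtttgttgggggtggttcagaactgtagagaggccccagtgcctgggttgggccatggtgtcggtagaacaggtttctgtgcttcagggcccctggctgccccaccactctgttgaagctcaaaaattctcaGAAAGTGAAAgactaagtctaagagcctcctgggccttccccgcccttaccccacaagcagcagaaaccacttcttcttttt
Cyba: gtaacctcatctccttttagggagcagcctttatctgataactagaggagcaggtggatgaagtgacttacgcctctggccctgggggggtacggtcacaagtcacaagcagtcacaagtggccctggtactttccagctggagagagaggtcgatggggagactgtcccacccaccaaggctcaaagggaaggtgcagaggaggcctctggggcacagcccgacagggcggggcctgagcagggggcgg
The Cybb window held 3 matches, which began 168, 124 and 29 bases before the start, the first 2 on the opposite strand. The Ncf1 window held 1 match, which began 82 bases before the start on the gene's strand. The Cyba window held 0. Of all 32851 windows of the same length, 2.98% held this motif on either strand. Neither AGGAAGT, the letters of a PU.1 type element (7.69% of windows), nor TTGCNNAA, those of a C/EBP type element (9.56%), occurred on either strand of the 3 windows. These are letter matches in short windows and no measurement of binding.

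On GRCm38, as the files give it, Cybb spans X:9435252-9487771 on the minus strand with 5808 exonic bases, and Cyba spans 8:122424776-122432930 on the minus strand with 1039. Ncf1 (5:134220053-134229625, minus strand, 3663 exonic bases) and Ncf4 (15:78244801-78262580, plus strand, 2021) encode the cytosolic subunits p47phox and p40phox. Rac2 lies at 15:78559169-78572783 on the minus strand with 3036 exonic bases, and Hvcn1 at 5:122206804-122242297 on the plus strand with 3563. Counts are reads over all exons of a gene, untranslated regions included. Hvcn1 shares 1574 exonic bases with Tctn1, which lies on the other strand, and the kit does not mark strand, so part of the Hvcn1 reads cannot be told from Tctn1 reads. Over all libraries Hvcn1 had 4089 counts and Tctn1 2527. Ncf1 shares 408 exonic bases with Gtf2ird2, against 531010 Ncf1 counts and 14982 Gtf2ird2 counts.

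Libraries had 5753476 to 29984954 counts, with a median of 18741144. The 8 libraries 1b were mostly shallower, with 5753476 to 17976890 counts, and listed 29162 to 38844 genes with counts, against 17132 to 32666 genes in libraries 1a and 2. In counts per 1000000 (CPM), Itgad was at 0.0583 to 3.67 across the 12 WT libraries and at 12.5 to 102 across the 12 labelled αD KO, so the transcript of the targeted gene was higher, not lower, in the libraries labelled αD KO, and counts per gene do not show what the targeted allele encodes. The lung libraries were placed on an axis from the WT lung 0h mean (0) to the WT lung 12h mean (1). Its 1338 genes, none of the 6, were those that passed the test between these WT groups described below. The WT means thus lie apart on it by construction. WT lung 12h library 1b lay at 0.661. αD KO lung 0h library 2 lay at 1.03, and αD KO lung 12h libraries 1a and 2 lay at 0.0992 and 0.188. These 3 libraries stood nearer to the WT mean of the other time than to that of their own label. Whether the labels or the αD KO change itself differ was not tested. The fitted values of the 6 genes that are named for αD KO lung are given with and without these 3 libraries. Neutrophil markers were counted in every library (Ly6g 18.6 to 468 CPM, S100a8 8914 to 97887 CPM). The summed CPM of the 9 neutrophil markers was 28195 to 49991 in WT blood at 0h and 108090 to 205129 at 12h. S100a8 and S100a9 made up 19316 to 27611 CPM of that at 0h and 83548 to 172292 CPM at 12h. The other 7 markers, a split made after seeing the data, summed to 8879 to 22380 CPM and 24543 to 38543 CPM in WT blood, and overlapped in WT lung (13893 to 26346 CPM and 20332 to 21838 CPM).

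The 6 transcripts differed widely in abundance. Compared per length, as mean CPM per kilobase of exon in a group, Cyba or Rac2 stood first in all 8 groups and Hvcn1 last. In WT blood at 0h the order was Cyba at 884 ± 517 (SD, n = 3 here and below), Rac2 at 816 ± 507, Ncf1 at 152 ± 34.4, Ncf4 at 147 ± 76.3, Cybb at 33.7 ± 17.2 and Hvcn1 at 1.44 ± 1.14. Libraries of Cyba and Rac2 overlapped, as did those of Ncf1 and Ncf4, while Rac2 stood apart from Ncf1, Ncf4 from Cybb and Cybb from Hvcn1. In WT blood at 12h the order of the means was the same, from Cyba at 2011 ± 952 to Cybb at 304 ± 251 and Hvcn1 at 3.74 ± 0.819 CPM per kilobase, but among neighbours only Cybb and Hvcn1 were then apart. In WT lung at 12h Ncf4 (577 ± 216) had a higher mean than Ncf1 (388 ± 106), with overlapping libraries. Cybb, the catalytic subunit gp91phox, was thus the fifth of 6 by mean in every group, below Cyba, the p22phox chain it pairs with. Hvcn1 ranged from 1.09 to 25.2 CPM over the 24 libraries, and its lowest library held 12 counts, so its values carry large counting error.

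**Figure D1:**
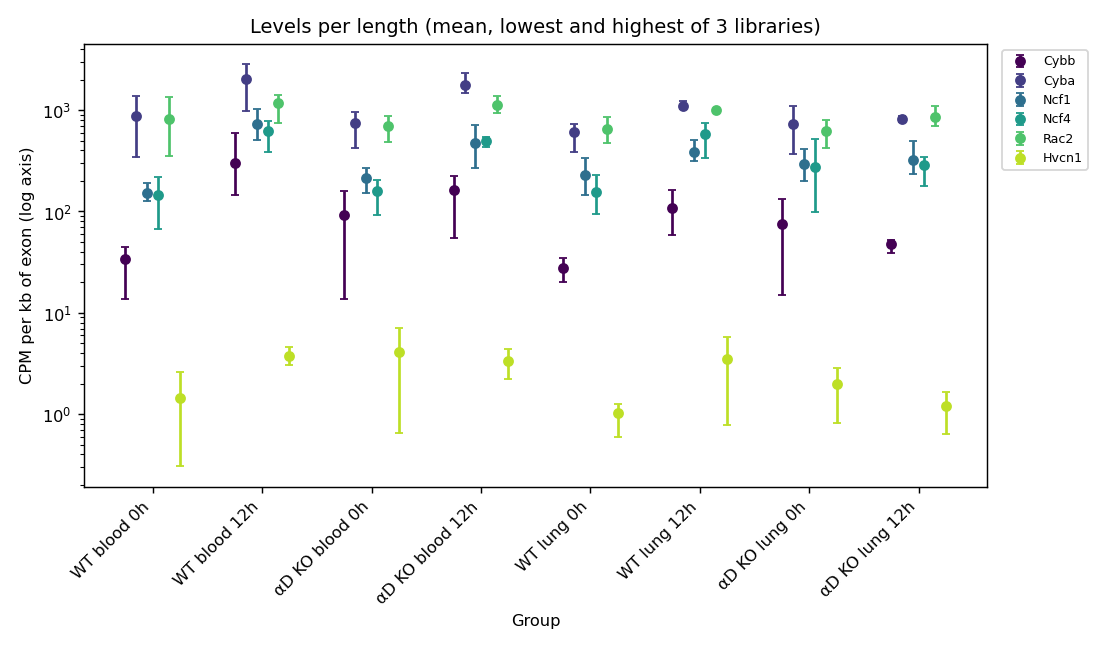
Mean level per length (CPM per kilobase of exon, log axis) of the 6 genes in the 8 groups, with bars from the lowest to the highest of 3 libraries. Cyba and Rac2 lie on top in each group, Cybb is the fifth and Hvcn1 is lowest.

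In WT blood, Cybb, Ncf1 and Ncf4 rose after CLP. In libraries 1a, 1b and 2, in this order here and below, Cybb was at 248, 80.3 and 259 CPM before CLP and at 3443, 848 and 999 CPM after it. The groups did not overlap, and library 1a at 12h lay far above the other 2. The fitted change was 2.97 on the log2 scale (SE 0.65, 95% interval 1.47 to 4.47; edgeR quasi-likelihood F test, adjusted p = 0.0243, two-sided here and below). Ncf1, the p47phox organizer that carries the cytosolic complex to the membrane, was at 703, 502 and 470 CPM at 0h and at 3726, 1863 and 2503 CPM at 12h. Its lowest library at 12h lay above its highest at 0h, with a log2 change of 2.04 (SE 0.39, adjusted p = 0.0165). Ncf4, the p40phox subunit that binds a phosphoinositide of the phagosome membrane, went from 441, 134 and 316 CPM to 1586, 781 and 1451 CPM, with a log2 change of 1.90 (SE 0.45, adjusted p = 0.0321).

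The other 3 genes did not pass the test in WT blood. Cyba was at 1432, 360 and 964 CPM at 0h and 2960, 1013 and 2295 CPM at 12h, with overlapping groups and a log2 change of 0.98 (95% interval -0.25 to 2.21, adjusted p = 0.271 in edgeR), or 0.64 without 0h library 1b. Rac2 was at 4118, 1064 and 2248 CPM and then at 4309, 2285 and 4156 CPM, with a log2 change of 0.34 (-0.81 to 1.50, adjusted p = 0.683 in edgeR) that was 0.92 without 0h library 1a and 0.023 without 0h library 1b. Hvcn1 was at 9.22, 1.09 and 5.06 CPM and then at 16.6, 10.9 and 12.5 CPM. Its groups did not overlap, yet the fitted change of 1.22 (-0.20 to 2.63) had an adjusted p of 0.236 in edgeR, and it was 1.90 without 0h library 1a and 0.78 without 0h library 1b. Within each library number all 6 genes were higher at 12h: the log2 ratios in libraries 1a, 1b and 2 were 3.80, 3.40 and 1.95 for Cybb, 2.41, 1.89 and 2.41 for Ncf1, 1.85, 2.54 and 2.20 for Ncf4 and 0.07, 1.10 and 0.89 for Rac2. Cybb had the largest of these ratios in 1a and 1b, and Ncf1 in 2. The call, an adjusted p under 0.05 with a log2 change above 1, was thus met upward by 3 of 6 genes, and 7.75% of the 14625 genes tested were called higher. The 3 libraries at 12h lay above all 3 at 0h for 4 of 6 genes, and for 22.1% of the genes tested. The median log2 change was 1.56 over the 6 genes and -0.15 over all genes tested.

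These calls needed both 1a and 2. Without WT blood 0h library 1a or 2, or without WT blood 12h library 1a or 2, the 3 genes kept log2 changes of 1.80 to 3.28 but had adjusted p of 0.16 to 0.42 in edgeR, with 2 to 150 genes called in all. The Cybb change was 2.15 without 12h library 1a. With the files 1a and 1b of a sample summed, which leaves 2 samples a group, Cybb (2.75), Ncf1 (2.21) and Ncf4 (1.93) were called again, against 9.76% of 17303 genes called higher. Cyba changed there by 0.98 (0.51 to 1.46, adjusted p = 0.0226 in edgeR), and missed the call only by the log2 threshold of 1. In bulk samples, fewer cells of a type and less RNA per cell cannot be told apart. Monocytes and macrophages also express the oxidase, and the summed CPM of their 14 markers was 567 to 2348 at 0h and 16061 to 46958 at 12h in WT blood. At 12h most of that was Chil3, which neutrophils express too (6.88 to 775 CPM at 0h, 15450 to 45768 CPM at 12h). The other 13 markers summed to 560 to 1578 CPM at 0h and 611 to 1218 CPM at 12h. Of these 13, the 12h libraries lay above all 0h libraries for 2, below all for 4, and overlapped for 7. The part of these cells in the result was not tested. Leaving out Chil3 was chosen after its values were seen. Of the defining markers, Marco was at 0 in 6 of 24 libraries, and C1qb and Mrc1 in 2 each.

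**Figure D2:**
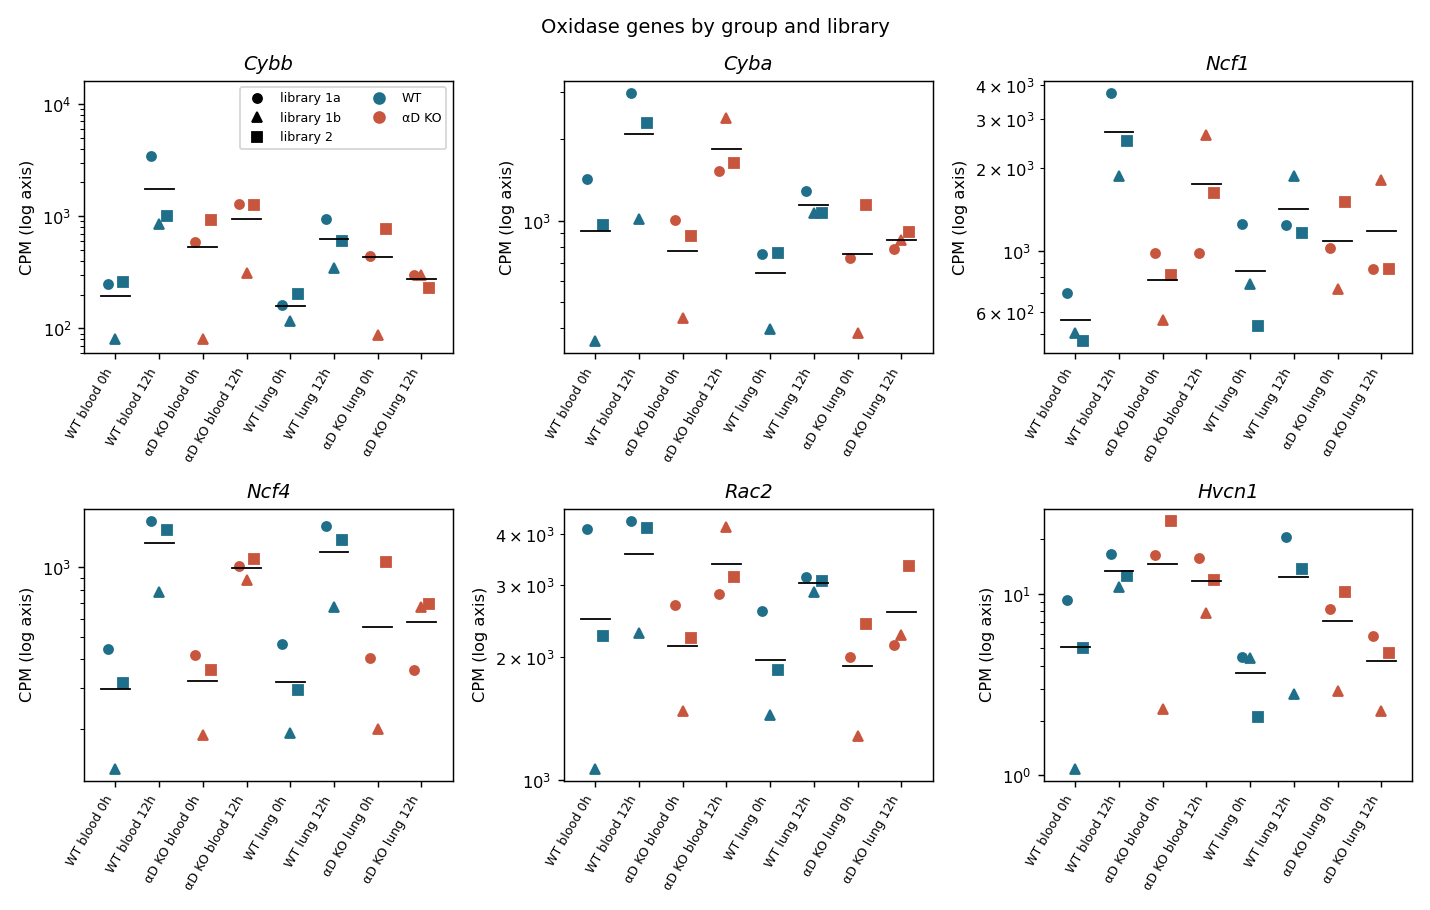
CPM (log axis) of each gene in all 24 libraries, by group, with WT in blue, αD KO in red, a shape for each library number and a line at the group mean. In WT blood and WT lung the Cybb and Ncf4 libraries at 12h lie above all those at 0h, and libraries 1b (triangles) are often the lowest of their group.

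In WT lung, Cybb and Ncf4 rose and the other 4 genes did not pass the test. Cybb was at 160, 116 and 203 CPM at 0h and at 950, 343 and 603 CPM at 12h, a log2 change of 1.89 (SE 0.40, 95% interval 0.97 to 2.80; edgeR adjusted p = 0.0284). Ncf4 went from 467, 191 and 295 CPM to 1511, 674 and 1313 CPM, a log2 change of 1.80 (SE 0.43, adjusted p = 0.0409). Neither gene's groups overlapped. Cyba was at 757, 400 and 761 CPM and then at 1285, 1067 and 1069 CPM, also without overlap, with a log2 change of 0.83 (-0.09 to 1.75, adjusted p = 0.231 in edgeR). Rac2 was at 2598, 1436 and 1856 CPM and then at 3136, 2891 and 3078 CPM, again without overlap, with a log2 change of 0.62 (-0.33 to 1.58, adjusted p = 0.385 in edgeR), or 0.35 without 12h library 1b.

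Ncf1 in WT lung was at 1249, 757 and 532 CPM at 0h and at 1240, 1870 and 1156 CPM at 12h. Its groups overlapped, and the log2 change was 0.81 (-0.37 to 1.99, adjusted p = 0.361 in edgeR). It was 0.18 without 12h library 1b, 0.48 without 0h library 2 and 0.20 with libraries 1a and 2 only. Hvcn1 was at 4.47, 4.44 and 2.11 CPM and then at 20.6, 2.81 and 13.7 CPM, a log2 change of 1.57 (0.18 to 2.97, adjusted p = 0.143 in edgeR). Library 1b at 12h was the single one below the 0h libraries 1a and 1b, and without it the Hvcn1 change was 1.86 with an adjusted p of 0.0173, in a refit that called 12.5% of 15570 genes higher, while without 12h library 1a it was 0.97. With libraries 1a and 2 only Cybb, Ncf4 and Hvcn1 were called, against 18.5% of 14258 genes called higher, and with the files of sample 1 summed the same 3, against 6.26% of 19014 genes. The edgeR call was met upward by 2 of 6 genes, against 5.24% of 14859 genes. The libraries at 12h lay above all those at 0h for 4 of 6 genes, against 12.2% of the genes tested. The calls on Cybb and Ncf4 were lost in 5 of 6 refits that left out a library, each but the 1 without library 1b at 12h, with adjusted p of 0.0696 to 0.484 and log2 changes of 1.42 to 2.25. The 3 refits without 0h library 1a, 0h library 2 or 12h library 1a called 0 genes in all, that without 12h library 2 called 27, that without 0h library 1b called 769 and that without 12h library 1b called 3941, against 1340 with all libraries. The 14 monocyte and macrophage markers summed to 850 to 1500 CPM at 0h and 4839 to 9662 CPM at 12h in WT lung, and without Chil3 to 780 to 1347 CPM and 705 to 1061 CPM. Their part in the result was not tested.

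In αD KO blood, Ncf4 alone passed the test. It was at 417, 188 and 360 CPM at 0h and at 1016, 885 and 1087 CPM at 12h, without overlap, a log2 change of 1.45 (SE 0.29, 95% interval 0.78 to 2.11; edgeR adjusted p = 0.0250). Cyba was at 1006, 435 and 879 CPM and then at 1529, 2392 and 1633 CPM, also without overlap, with a log2 change of 1.11 (0.28 to 1.94) and an adjusted p of 0.0918. Rac2 was at 2683, 1476 and 2225 CPM and then at 2861, 4161 and 3141 CPM, with a log2 change of 0.50 (-0.24 to 1.24, adjusted p = 0.355 in edgeR), or 0.29 without 12h library 1b. The edgeR call was met upward by 1 of 6 genes, against 3.75% of 14156 genes. The libraries at 12h lay above all those at 0h for 3 of 6 genes, against 17.7%. Leaving out any of αD KO blood 0h 1a, 1b or 2, or 12h 1a or 2, ended the call on Ncf4, with log2 changes of 1.27 to 1.69 and adjusted p of 0.0574 to 0.139. With the files of sample 1 summed Ncf4 was called (1.51), against 2.1% of 16521 genes called higher. The 14 monocyte and macrophage markers summed to 789 to 4627 CPM at 0h and 4834 to 20454 CPM at 12h, and without Chil3 to 770 to 1987 CPM and 643 to 794 CPM, and their part in the result was not tested.

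Cybb in αD KO blood was already high in part of the libraries before CLP. It was at 594, 79.8 and 928 CPM at 0h and at 1287, 315 and 1258 CPM at 12h, so the groups overlapped while each library number was higher at 12h, by 1.12, 1.98 and 0.44 on the log2 scale. The fitted change was 0.67 (-1.02 to 2.36, adjusted p = 0.594 in edgeR), and was 0.19 without αD KO blood 0h library 1b, 1.37 without 0h library 2 and 1.11 without 12h library 1b. Ncf1 was at 984, 558 and 813 CPM and then at 979, 2634 and 1614 CPM, with library 1a level between the times, a log2 change of 0.99 (0.02 to 1.97), or 0.51 without 12h library 1b, and an adjusted p of 0.173. Hvcn1 was at 16.5, 2.33 and 25.2 CPM and then at 15.7, 7.88 and 11.9 CPM, a log2 change of -0.45 (-1.97 to 1.06, adjusted p = 0.694 in edgeR). The library at 25.2 CPM, αD KO blood 0h library 2, also had the highest sums of the 12 B cell markers (1737 CPM, against 36.3 to 1230 CPM in the other 23 libraries) and of the 10 T and NK cell markers (461 CPM, against 8.47 to 37.2 CPM). Without it the Hvcn1 change was 0.22, while it was -0.93 without 0h library 1b and -0.24 without 12h library 1b. B cells express Hvcn1, and their part in its values was not tested.

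**Figure D3:**
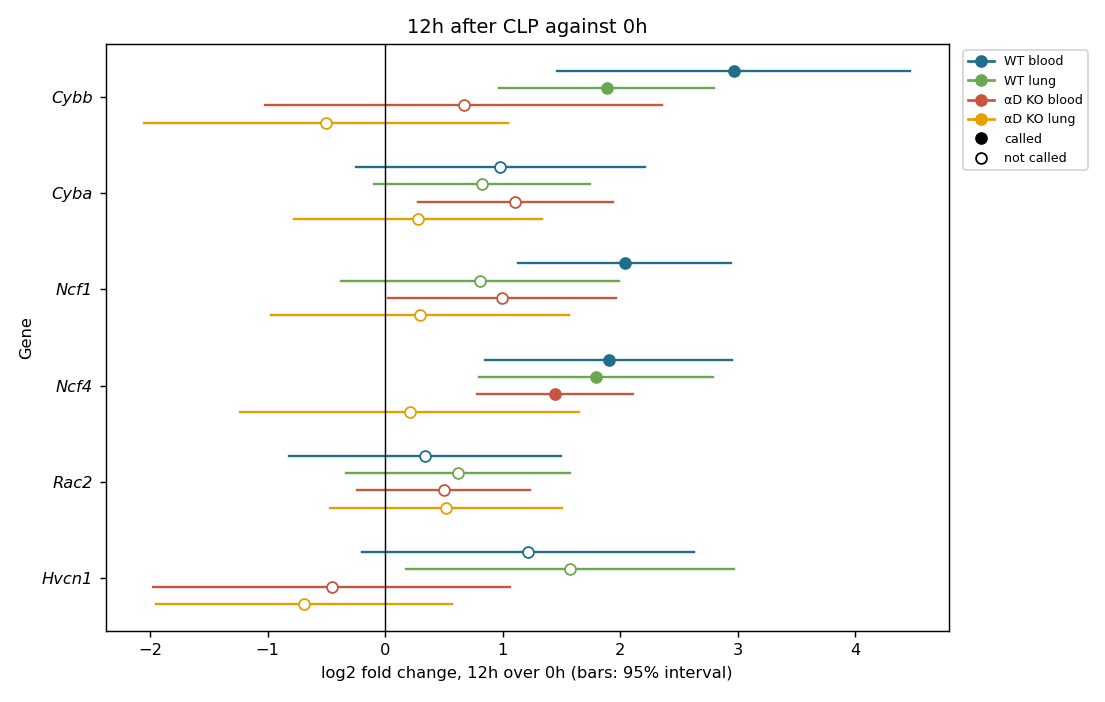
Fitted log2 fold change at 12h over 0h for each gene (points, with 95% intervals as lines) in WT blood, WT lung, αD KO blood and αD KO lung. Filled points met the call: Cybb and Ncf4 in both WT tissues, Ncf1 in WT blood and Ncf4 in αD KO blood.

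In αD KO lung no gene of the 6 passed the test between the labelled times. Cybb was at 445, 87.3 and 769 CPM at 0h and at 301, 301 and 227 CPM at 12h, a log2 change of -0.50 (-2.05 to 1.05, adjusted p of 1.00 in edgeR for all 6 genes). Ncf4 was at 404, 200 and 1053 CPM and then at 360, 676 and 695 CPM, and Ncf1 at 1021, 726 and 1503 CPM and then at 860, 1808 and 858 CPM. In both the highest 0h library was library 2, 1 of the 3 libraries that stood apart. Their log2 changes were 0.21 (-1.23 to 1.65) for Ncf4 and 0.30 (-0.97 to 1.57) for Ncf1. Cyba was at 728, 383 and 1149 CPM and then at 785, 851 and 911 CPM, a log2 change of 0.28 (-0.77 to 1.34). Rac2 was at 1998, 1282 and 2412 CPM and then at 2136, 2261 and 3345 CPM, a log2 change of 0.52 (-0.47 to 1.50). Hvcn1 was at 8.23, 2.90 and 10.2 CPM and then at 5.85, 2.27 and 4.71 CPM, a log2 change of -0.69 (-1.95 to 0.57), and was lower at 12h in each library number. All 6 genes overlapped between the times. The edgeR test called 0% of 17939 genes, although 72 had p under 0.05 before adjustment, and DESeq2 also called 0. The libraries at 12h lay above all those at 0h for 0 of 6 genes, against 0.937% of the genes tested.

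Without the 3 libraries, αD KO lung had 2 libraries at 0h and only library 1b at 12h, whose spread is taken from the 0h pair. The log2 change was then 0.23 for Cybb (-1.20 to 1.65), 1.23 for Ncf4 (-0.20 to 2.65), 1.12 for Ncf1 (-0.37 to 2.62), 0.68 for Cyba, 0.54 for Rac2 and -1.24 for Hvcn1, with edgeR adjusted p of 0.883 or more. That fit called 1.41% of 23183 genes. Within library number 1b alone, which held none of the 3, the log2 ratio of 12h to 0h was 1.79 for Cybb, 1.75 for Ncf4, 1.32 for Ncf1, 1.15 for Cyba, 0.82 for Rac2 and -0.35 for Hvcn1. In library numbers 1a and 2 the Cybb ratio was -0.57 and -1.76.

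Ratios of raw reads within a library do not depend on how libraries are scaled. Cybb and Cyba encode the chains of flavocytochrome b558, and reads of Cybb per read of Cyba were 0.173, 0.223 and 0.268 in WT blood at 0h and 1.16, 0.837 and 0.436 at 12h. In WT lung they were 0.212, 0.290 and 0.267 at 0h and 0.739, 0.321 and 0.564 at 12h. In both WT tissues the groups did not overlap, in lung by a narrow margin (0.290 against 0.321). Cybb was called in both and Cyba in neither, so the ratio is not independent of those calls. No share of other gene pairs without overlap is given. In αD KO blood the ratio was 0.590, 0.183 and 1.06 at 0h and 0.841, 0.131 and 0.770 at 12h, with overlap. In αD KO lung it was 0.611, 0.228 and 0.670 and then 0.383, 0.353 and 0.249, which without the 3 libraries leaves 0.611 and 0.228 at 0h and 0.353 at 12h. With 3 libraries against 3, an exact two-sided permutation test cannot go below p = 0.10, so no test is given.

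Reads of Ncf4 per read of Rac2 were compared in the same way. In WT blood they were 0.107, 0.126 and 0.140 at 0h and 0.368, 0.342 and 0.349 at 12h. In αD KO blood they were 0.155, 0.128 and 0.162 and then 0.355, 0.213 and 0.346. In WT lung they were 0.180, 0.133 and 0.159 and then 0.482, 0.233 and 0.427. The times did not overlap in these 3 arms, in each of which Ncf4 was called and Rac2 was not. No share of other gene pairs without overlap is given here either. In αD KO lung the ratio was 0.202, 0.156 and 0.436 in libraries 1a, 1b and 2 at 0h and 0.169, 0.299 and 0.208 at 12h. The libraries that lay near the WT lung 12h mean on the axis above, αD KO lung 0h library 2 and 12h library 1b (0.826), had the 2 highest of these ratios, and the other 4 lay at 0.156 to 0.208. The axis rests on the WT lung comparison in which Ncf4 was called and Rac2 was not, so this match is not independent of it.

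**Figure D4:**
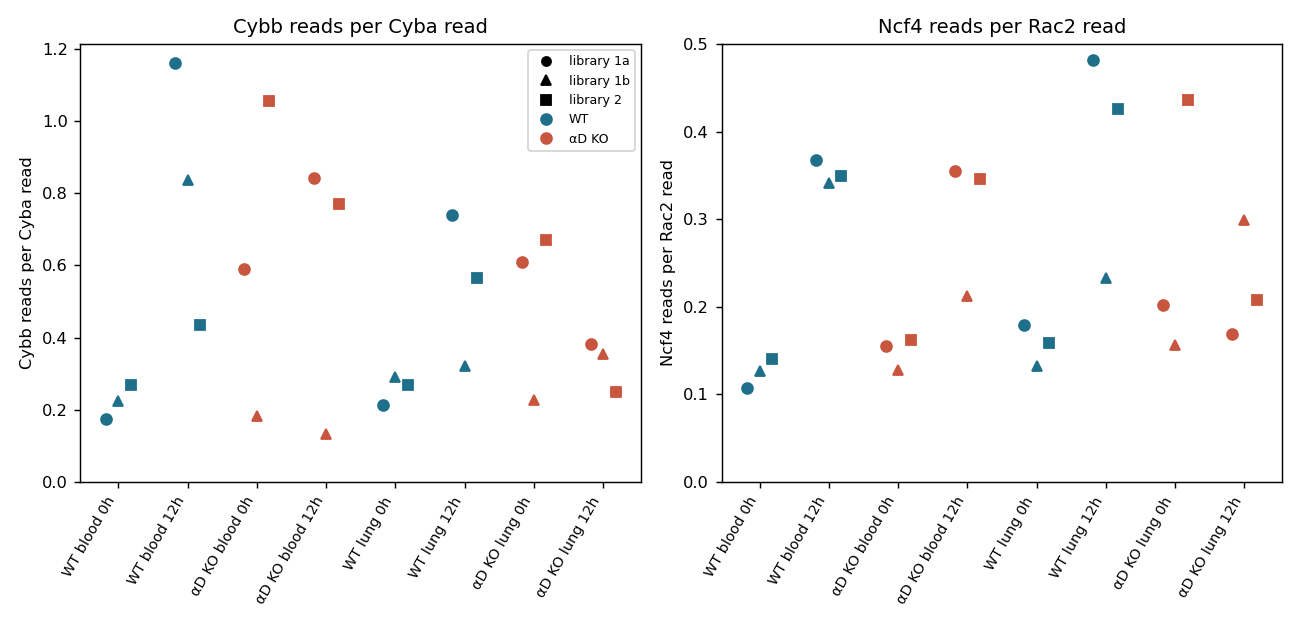
Cybb reads per Cyba read (left) and Ncf4 reads per Rac2 read (right) in every library, by group, with colours for genotype and shapes for library number. The Ncf4 ratio at 12h lies above that at 0h in WT blood, αD KO blood and WT lung, and in αD KO lung library 2 at 0h (0.436) is the highest.

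The genotype comparison set the libraries labelled αD KO against those labelled WT. The direction of each difference rests on these labels, and the Itgad transcript went against them, being higher in all 12 libraries labelled αD KO than in all 12 labelled WT. No member passed the test in either tissue or at either time. At 0h the largest fitted differences of αD KO from WT were those of Hvcn1 and Cybb in blood and of Cybb in lung. Cybb in blood was at 594, 79.8 and 928 CPM in αD KO and at 248, 80.3 and 259 CPM in WT, a log2 difference of 1.41 (-0.36 to 3.19, adjusted p of 1.00 in edgeR). In lung it was at 445, 87.3 and 769 CPM in αD KO and at 160, 116 and 203 CPM in WT, a log2 difference of 1.35 (-0.16 to 2.87, adjusted p = 0.983 in edgeR). In both tissues libraries 1a and 2 of αD KO lay above every WT library and library 1b did not. Lung 0h library 2 is 1 of the 3 libraries that stood apart, and without it the lung difference was 0.80 (-0.76 to 2.37). Hvcn1 differed by 0.89 in lung (-0.37 to 2.14), or 0.67 (-0.81 to 2.15) without that library, and by 1.51 in blood (-0.59 to 3.62). In lung at 0h the monocyte and macrophage markers summed to 807 to 11659 CPM in αD KO, highest in library 2, and 850 to 1500 CPM in WT. Erythroid markers summed to 1439 to 2565 CPM and 71.2 to 731 CPM, and B cell markers to 54.8 to 447 CPM and 469 to 833 CPM. The part of these cells in lung was not tested. Without αD KO blood 0h library 2, which had the highest B cell, T and NK cell, platelet and erythroid marker sums of the 24 libraries, the blood differences were 1.01 for Hvcn1 and 0.88 for Cybb. Libraries 1a and 2, the high ones for Cybb, also had more monocyte and macrophage markers (2706 and 4627 CPM, against 567 to 2348 CPM in WT blood at 0h) and platelet markers (581 and 673 CPM, against 41.0 to 133 CPM), and their part in the result was not tested. Within library numbers 1a, 1b and 2 in blood at 0h, αD KO was higher by 0.84, 1.10 and 2.32 for Hvcn1 and by 0.49, 0.15 and 0.79 for Ncf1 on the log2 scale. Same-numbered libraries deviated together there (correlations of 0.245, 0.750 and 0.273), and with the replicate block the Hvcn1 difference was 1.41 (0.27 to 2.54), an interval above 0, with an adjusted p of 1.00 in edgeR. Of all genes tested, 0.0115% of 17356 were called in blood, and 0% of 18232 in lung, where p before adjustment was under 0.05 for 340 and DESeq2 called 8. In the main fits, p before adjustment was above 0.05 for each of the 6 genes in all 4 genotype comparisons. With the files of sample 1 summed, Cybb differed at 0h by 1.52 (0.46 to 2.58) in blood and 1.72 (0.30 to 3.15) in lung. Hvcn1 differed in that setting by 1.58 (0.29 to 2.87) in blood and 1.36 (-0.19 to 2.92) in lung. With libraries 1a and 2 only, Cybb differed by 1.60 (0.81 to 2.39) in blood and 1.81 (0.79 to 2.82) in lung. Except that of Hvcn1 in lung, these intervals lay above 0, but no member was called.

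At 12h the fitted Cybb differences lay below 0. In blood Cybb was at 1287, 315 and 1258 CPM in αD KO and at 3443, 848 and 999 CPM in WT, a log2 difference of -0.88 (-2.24 to 0.48, adjusted p = 0.962 in edgeR). In blood this rested largely on WT library 1a at 3443 CPM, and without it the difference was -0.075, while without αD KO library 1b it was -0.54. The Cyba, Ncf1, Ncf4, Rac2 and Hvcn1 libraries overlapped between the genotypes in blood at 12h. The Ncf1 difference was -0.54 (-1.55 to 0.48), from -1.15 to -0.26 with 1 library left out, and that of Cyba -0.075 (-0.97 to 0.82), from -0.47 to 0.15. With libraries 1a and 2 only they were -1.24 (-1.99 to -0.49) and -0.71 (-1.22 to -0.20), with adjusted p of 0.119 and 0.145 in edgeR. The call was met by 0% of 12596 genes, while 505 had p under 0.05 before adjustment and DESeq2 called 16. In lung Cybb was at 301, 301 and 227 CPM in αD KO and at 950, 343 and 603 CPM in WT, a log2 difference of -0.95 (-1.98 to 0.07, adjusted p = 0.609 in edgeR). Cyba in lung (785, 851 and 911 CPM against 1285, 1067 and 1069 CPM) differed by -0.26 (-1.17 to 0.66, adjusted p = 0.892 in edgeR). These were the 2 of 6 genes whose αD KO libraries all lay below all WT libraries, against 5.48% of the genes tested. Hvcn1 differed by -1.28 (-2.78 to 0.21, adjusted p = 0.625 in edgeR) and Ncf4 by -0.78 (-1.86 to 0.30, adjusted p = 0.666 in edgeR). With the files of sample 1 summed, the lung differences were -1.10 (-2.02 to -0.18) for Cybb, -1.38 (-2.28 to -0.49) for Hvcn1 and -0.88 (-1.83 to 0.07) for Ncf4, none called. Marker sums moved with these differences: the monocyte and macrophage markers summed to 1773 to 4537 CPM in αD KO and 4839 to 9662 CPM in WT, and without Chil3 to 693 to 1352 CPM and 705 to 1061 CPM. The B cell markers summed to 63.3 to 547 CPM in αD KO and 36.3 to 112 CPM in WT, and the eosinophil markers to 6.33 to 90.2 CPM and 2.96 to 15.4 CPM, with αD KO libraries 1a and 2 above all WT libraries in both. Their part in the result was not tested. The edgeR test called 0% of 16764 genes in lung at 12h, while 1390 had p under 0.05 before adjustment and DESeq2 called 179.

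The lung result at 12h depended on which libraries entered. With libraries 1a and 2 only, Cybb (-1.39), Ncf4 (-1.28) and Hvcn1 (-1.54) were called lower in αD KO, with edgeR adjusted p of 0.0145, 0.0262 and 0.0133, but so were 14.9% of 15574 genes. Both αD KO libraries in that fit are among the 3 that stood apart, and lay near the WT lung 0h mean. Without those 2 libraries αD KO lung 12h library 1b stood alone, so the spread came from the WT libraries and that library is assumed to vary as they do. The Cybb difference was then -0.72 (-2.73 to 1.28), that of Cyba -0.13 (-2.01 to 1.76), that of Ncf1 0.60 (-1.56 to 2.76), against -0.12 with all libraries, that of Ncf4 -0.45 (-2.49 to 1.59) and that of Hvcn1 -2.06 (-5.08 to 0.96), none called.

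**Figure D5:**
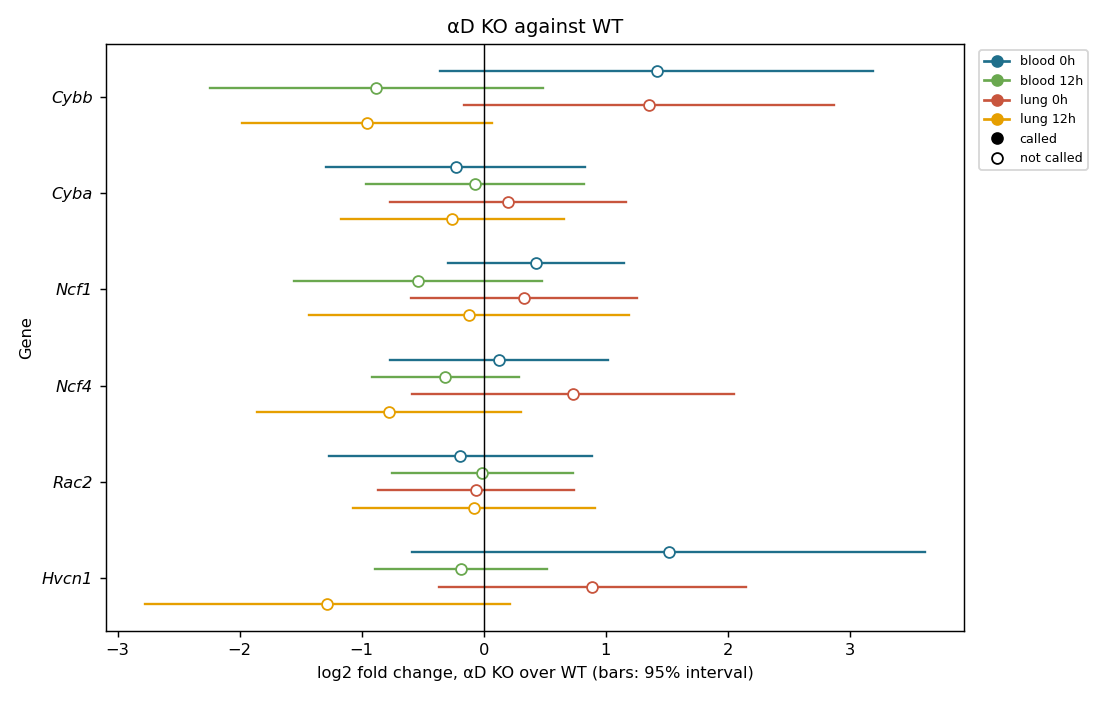
Fitted log2 difference of αD KO from WT for each gene (points, with 95% intervals as lines) in blood and lung at 0h and 12h. In these main fits, with each library entered singly and no replicate block, all 24 intervals include 0 and all points are open, since no gene met the call.

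Whether the change after CLP differed between genotypes was tested as an interaction, called at an adjusted p under 0.05. In lung the 12h change of Cybb was lower in αD KO than in WT by 2.36 on the log2 scale (a difference of -2.36, 95% interval -4.16 to -0.55, unadjusted p = 0.0147, adjusted p = 0.410 in edgeR). That of Hvcn1 differed by -2.23 (-4.19 to -0.26, adjusted p = 0.422 in edgeR) and that of Ncf4 by -1.58 (-3.24 to 0.08, adjusted p = 0.502 in edgeR), or -0.84 without αD KO lung 0h library 2. No gene passed, at 0% of 23211 genes, while 2432 had p under 0.05 before adjustment and DESeq2 called 356. With libraries 1a and 2 only, Cybb (-2.99) and Hvcn1 (-2.90) were called, as were 6.47% of 18773 genes in that direction, and 3 of the 4 αD KO libraries in that fit were those that stood apart. Without these 3, a fit added after seeing the data with 1 αD KO library left at 12h, the difference was -1.49 for Cybb (-3.71 to 0.74), -2.67 for Hvcn1 (-5.55 to 0.21) and -0.46 for Ncf4 (-2.14 to 1.21), each with an adjusted p of 1.00, and 0% of 28853 genes passed. In blood the difference was -2.23 for Cybb (-4.81 to 0.36) and -1.58 for Hvcn1 (-3.94 to 0.77), each with an adjusted p of 1.00. With the replicate block they were -2.13 (-3.71 to -0.55) and -1.68 (-3.51 to 0.14), neither called. Without the block, that of Cybb was -1.38 without WT blood 12h library 1a. That of Hvcn1 was -1.03 without αD KO blood 0h library 2 and -2.45 without WT blood 0h library 1a. There 0% of 19792 genes passed, 232 had p under 0.05 before adjustment and DESeq2 called 1.

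Lung was compared with blood in WT. At 0h the libraries of all 6 genes overlapped between the tissues. The largest fitted difference was that of Cyba, -0.57 in lung against blood (-1.54 to 0.39, adjusted p of 0.999 in edgeR), or -0.12 without WT blood 0h library 1a, and 0% of 15967 genes were called, while 406 had p under 0.05 before adjustment and DESeq2 called 47. At 12h Cybb was at 950, 343 and 603 CPM in lung and at 3443, 848 and 999 CPM in blood. The groups overlapped, since lung library 1a lay above blood library 1b, while lung was lower in each library number. The log2 difference was -1.41 (-2.65 to -0.17, unadjusted p = 0.0303, adjusted p = 0.231 in edgeR), and without WT blood 12h library 1a it was -0.50. Monocyte and macrophage markers summed to 4839 to 9662 CPM in WT lung and 16061 to 46958 CPM in WT blood at 12h. Without Chil3 they summed to 705 to 1061 CPM and 611 to 1218 CPM. Lung structural markers summed to 111 to 358 CPM and 18.5 to 21.2 CPM. The part of these cells was not tested. The call was met by 0.0442% of 13590 genes, while 2454 had p under 0.05 before adjustment and DESeq2 called 1123. With libraries 1a and 2 only, Cybb (-1.55), Ncf1 (-1.40) and Cyba (-1.19) were called lower in lung, against 12.7% of 13385 genes. Leaving out WT lung 12h library 1b alone gave a call on Ncf1 (-1.29, adjusted p = 0.0271), in a refit that called 9.57% of 14435 genes lower. The tissue by time interaction was -1.26 for Cybb (-3.06 to 0.54) and -1.42 for Ncf1 (-2.83 to 0.003), both with an adjusted p of 0.876. With the replicate block they were -1.24 (-2.39 to -0.09) and -1.36 (-2.49 to -0.24), with adjusted p of 0.367 and 0.347 in edgeR. Without the block, that of Cybb was -0.24 without WT blood 12h library 1a, -0.80 without WT blood 0h library 1b and -0.83 without WT lung 0h library 2. The main interaction test called 0% of 23497 genes, while 1290 had p under 0.05 before adjustment and DESeq2 called 101.

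Library number was a source of spread common to most of these genes. Library 1b was the lowest of its group in 7 of 8 groups for Cybb, Ncf4 and Hvcn1, in 6 of 8 for Cyba and Rac2, and in 3 of 8 for Ncf1. Over the 24 libraries, which share depth and library number as well as condition, Pearson's r of log2 CPM was highest between Cyba and Rac2 (0.93) and lowest between Ncf1 and Hvcn1 (0.43). After group means were taken out, r was 0.93 for Cyba and Rac2 and 0.12 for Ncf1 and Hvcn1.

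Among the 6637 genes with a mean of at least 10 CPM, the genes most like each member over the 24 libraries were found by the same r, as a description. For Cybb they were Zmpste24 (0.96), Me2 (0.95) and Mdh1 (0.95), and for Cyba Gpr108, Prelid1 and Fis1 (0.96 each). Ncf1 was most like Mmp25 (0.93), a membrane-bound matrix metalloproteinase of neutrophils, followed by Aph1b (0.92) and Fdft1 (0.91). Ncf4 had the closest match of the 6, Prdx5 (0.97), followed by Glrx and Lgals3 (0.97 each). Rac2 was most like Nfe2 (0.95), Rit1 (0.95) and Fis1 (0.94). For Hvcn1, which is low and noisy, the values were lower, with Serpinb6a (0.89), Hars (0.88) and Zmpste24 (0.88).

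Cybc1, a chaperone of the membrane subunits, had fitted log2 changes at 12h of -0.02 in WT blood and -0.69 in WT lung and was not called in either. Rac1, the paralog of Rac2, was at 63.4 to 1081 CPM over the 24 libraries and was not called in any of the 10 pairwise comparisons. Its difference between WT lung and WT blood at 12h was 1.47 (0.23 to 2.70, adjusted p = 0.221 in edgeR), while that of Rac2 was -0.08 (-0.94 to 0.78).

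Of 76 other genes of the pathway found in the files (other oxidase components, Rac and Rap GTPases with their regulators, upstream kinases and lipases, transcription factors, and enzymes that handle superoxide and peroxide), 66 were tested in WT blood. There 5 were called higher and 2 lower, against 13.5% of all genes called in either direction, with a median log2 change of -0.35 over the 66, against -0.15 over all genes. The largest rises were in Sod2, the mitochondrial superoxide dismutase (26.1 ± 12.6 to 490 ± 423 CPM, log2 change 3.97 ± 0.84 SE, adjusted p = 0.0220 in edgeR), in Tiam2, a guanine nucleotide exchange factor for Rac (8.32 ± 2.39 to 48.0 ± 3.13 CPM, 2.36), and in Prdx1, a peroxiredoxin (16.9 ± 5.68 to 73.4 ± 38.5 CPM, 1.88). The genes that fell were the transcription factors Irf1 (580 ± 217 to 191 ± 29.7 CPM, -1.78) and Cebpd (472 ± 203 to 135 ± 30.2 CPM, -1.97). Adjusted p was 0.0231 or less for these 5. Of the other oxidase components, 5 of 12 were tested, all 5 had fitted changes below 0 and 0 were called.

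In WT lung 63 of the 76 were tested, 4 were called higher and 3 lower, against 9.02% of all genes called in either direction, with a median of 0.02 against 0.03 over all genes. Sod2 (32.7 ± 10.9 to 1151 ± 1229 CPM, log2 change 4.95, edgeR adjusted p = 0.0178), Txnrd1, a thioredoxin reductase (31.3 ± 6.55 to 244 ± 156 CPM, 2.80), and Tiam2 (13.1 ± 5.48 to 78.5 ± 48.7 CPM, 2.45) rose most. Arhgap15, a GTPase-activating protein for Rac (532 ± 269 to 97.8 ± 20.8 CPM, -2.45), and Pik3cg, the catalytic subunit of phosphoinositide 3-kinase gamma (202 ± 45.5 to 69.2 ± 11.4 CPM, -1.51), were among those that fell. In αD KO blood 63 were tested, 4 were called higher and 2 lower, against 8.75% of all genes called in either direction, with a median of -0.43 against -0.14. Among them were Sod2 (3.79), Prdx5 (1.63) and Txnrd1 (1.53), and, lower, the Rac exchange factor Dock2 (-1.17) and Pik3cg (-1.52). Sod2 had 28.4 ± 12.8 CPM at 0h and 455 ± 138 CPM at 12h in αD KO blood. In αD KO lung 0 of 71 were called, and in the genotype and tissue comparisons 0 of 62 to 70. Marker sums moved along with these comparisons and with those of the 6 genes. In WT blood the 12 B cell markers summed to 283 to 1230 CPM at 0h and 44.2 to 301 CPM at 12h, and the 4 eosinophil markers to 28.5 to 68.8 CPM and 5.78 to 8.01 CPM. In αD KO blood the B cell markers summed to 343 to 1737 CPM and 40.8 to 156 CPM, and the eosinophil markers to 36.4 to 54.9 CPM and 1.64 to 3.76 CPM. The B cell markers summed to 469 to 833 CPM in WT lung at 0h and 36.3 to 112 CPM at 12h, the 4 eosinophil markers to 55.9 to 125 CPM and 2.96 to 15.4 CPM, and the 10 lung structural markers to 55.3 to 171 CPM and 111 to 358 CPM. Over all libraries the 6 platelet markers summed to 3.72 to 673 CPM and the 5 erythroid markers to 20.9 to 6594 CPM. Their part in the results was not tested.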

How the data were processed

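RNA of sorted neutrophils was amplified by the authors with a full-length cDNA kit (SMART-Seq v4), made into Nextera XT libraries and sequenced in pairs. According to the methods and the submitters' processing notes, reads were trimmed with Trimmomatic 0.36 and mapped with STAR 2.5.2b to GRCm38 (mm10), and only unique reads in exons were counted. The counting program and strand setting are not given in the sources used here. The deposited values are raw read counts for 49315 genes in each of 24 files, with no scaling and no filter. Files 1a and 1b of a sample differed far beyond sampling noise (chi-square per degree of freedom 63.5 to 328, limit 1.2), so they are not 1 library deposited again, but this cannot tell separate mice from repeat preparations of 1 RNA. They were kept as separate libraries, and each comparison was also run with both files summed, which gives 2 samples a group.

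Each comparison used its own groups in edgeR 4.0.16 (R 4.3.3): TMM factors, filterByExpr, quasi-likelihood F test, Benjamini-Hochberg over all genes kept. A gene was called where its adjusted p was under 0.05 and its log2 change above 1 in either direction, and an interaction at the adjusted p alone. The study's own threshold was used, while its DESeq2 Wald test (DESeq2 1.42.0) served as an alternative. CPM are counts per 1000000 after TMM over the 24 libraries. Log2 CPM used a prior count of 1. Samples with the same number were checked for pairing by the correlation of their deviations from group means: it was over 0.1 for every pair in 5 of 10 comparisons, and the replicate block changed no member's call in any of them. All 6 genes passed the filter on low counts in every comparison. Fits were tested on simulated counts.

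The members and gene lists were chosen with earlier results of these data known. Named pathway genes were all those called where at most 6 were, otherwise the 3 largest rises and 3 largest falls among called genes without overlap between groups. Some genes that this rule names are not reported here. Intervals cover the spread between libraries. CPM of single libraries carry counting error that was not shown.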

Additional observations from a re-analysis of the deposited data

How the results depend on the processing

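The 6 calls on single genes were each recomputed under 13 settings that change the fit, 78 values in all: 43 kept the call, 35 kept the direction and lost it, and 0 changed direction. With the files of sample 1 summed, which leaves 2 samples a group, the 6 calls were kept. Without the filter on low counts 0 genes of the 6 were called in WT blood (main 3) and 0 in WT lung (main 2). With all 8 groups in 1 fit 0 were called in WT lung and 0 in αD KO blood (main 1), and DESeq2 called 2 in αD KO blood, Cyba being added. With libraries 1a and 2 only, 3 were called in the lung genotype comparison at 12h, 3 in WT lung against blood at 12h and 2 in the lung genotype by time interaction, each 0 in the main analysis. Hvcn1 in WT lung was added to the calls with libraries 1a and 2 only (2.14, adjusted p = 0.00502 in edgeR) and with the files of sample 1 summed (1.78, adjusted p = 0.0453), which gave 3 called genes each, in fits that called 2631 and 1190 genes higher against 778. Leaving out 1 library at a time gave 0 to 3 called genes in WT blood, 0 to 3 in WT lung, 0 to 1 in αD KO blood and 0 to 1 in WT lung against blood at 12h. The Cybb change in αD KO lung turned to 0.23 without the 3 lung libraries that stood apart, and ranged from -0.97 to 0.089 with 1 library left out. The Hvcn1 change in αD KO blood ranged from -0.93 to 0.22 with 1 library left out, and lay above 0 only without 0h library 2. The Ncf1 difference between genotypes in lung at 12h (main -0.12) turned to 0.60 without the 3 lung libraries and ranged from -0.75 to 0.30 with 1 library left out. In αD KO lung the changes of Ncf1 (main 0.30) and Ncf4 (main 0.21) turned to -0.083 and -0.11 with the files of sample 1 summed, and with libraries 1a and 2 only those of Ncf1, Cyba (main 0.28) and Ncf4 turned to -0.56, -0.15 and -0.46. With 1 library left out they ranged from -0.34 to 0.48 for Ncf1 and from -0.16 to 0.98 for Ncf4, and the Cyba difference between genotypes in blood at 12h ranged from -0.47 to 0.15. Blocking by library number (replicate block) called 3 genes of the 6 in WT blood, 2 in WT lung, 1 in αD KO blood and 0 in each of the other comparisons, as without the block. Over the whole table the count of called genes moved more: 944 to 3201 under the alternatives in WT blood (main 1975), 447 to 5299 in WT lung (main 1340), 64 to 2496 in αD KO blood (main 1238), 0 to 4686 in the lung genotype comparison at 12h (main 0) and 6 to 3779 in WT lung against blood at 12h (main 6). Another scaling (RLE) moved the median of all genes by over 0.1 only in the tissue by time interaction (0.17). The order of the genes per length was the same in 24 of 24 libraries with a prior count of 5. Depth limited Hvcn1, whose lowest library held 12 counts.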
